A study of Rattus norvegicus with 91 samples.

Results

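The purine signalling and adenosine genes described here are P2rx4, P2rx5, P2rx7, P2ry1, Adora1, Adora2a, Slc29a1, Entpd2 and Nt5e. Their members were all probe sets whose platform annotation gave exactly 1 gene symbol equal to 1 of these 9 genes, which found 12 of the 20826 single-gene probe sets, or 9 of 14217 genes. Expression was measured on 1 array per rat, in tissue of the ventral tegmental area. There, in the midbrain, lie the cell bodies of dopamine neurons that reach the nucleus accumbens. The 91 arrays came from 10 rat lines in 5 pairs, and in each pair 1 line had been bred for high and 1 for low alcohol consumption. HAD1, HAD2, P, AA and sP are the high-consumption lines, and the pairs were HAD1 with 8 arrays against LAD1 with 10, HAD2 with 8 against LAD2 with 9, P with 9 against NP with 10, AA with 10 against ANA with 10, and sP with 8 against sNP with 9. The labels name no treatment for any group, and the rats' age, sex and history of drinking were not part of the sources used here. Each pair sets 1 high line against 1 low line, so the arrays are replicates of a line and not of the selection, and selection and drift between closed lines cannot be told apart within a pair.

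ATP and ADP released from neurons and glia act on ATP-gated P2X channels and on G protein-coupled P2Y receptors. Enzymes on the cell surface then strip the phosphates in turn, with Entpd2 splitting ATP and Nt5e, also known as CD73, turning AMP into adenosine. Adenosine acts on the inhibitory receptor encoded by Adora1 and the stimulatory receptor encoded by Adora2a, and it is cleared by equilibrative transporters such as Slc29a1. Ethanol is known to inhibit P2X4 channels, encoded by P2rx4 and adenosine uptake through Slc29a1. Adora2a is best known from striatal neurons, and P2rx7 and P2rx4 are known from microglia.

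All values below are log2 signals made by the authors with RMA, which subtracts background, brings arrays to a common distribution and gives 1 value for all probes of a set. A value 1 higher means a doubled signal, and levels were compared only within a pair because the pairs' arrays had different value distributions. By these distributions, the HAD1 and LAD1 arrays formed 1 set and the HAD2 and LAD2 arrays another. Outside them, 3 arrays lay apart from the others of their label. The array labelled AA 1 lay with the 19 arrays labelled P and NP, and those labelled AA 19 and ANA 20 lay with the arrays labelled sP and sNP. The line labels of the 56 arrays outside the HAD and LAD lines are therefore in doubt, and their results are given for arrays as labelled. Dopamine neuron markers were bright, with Th, the enzyme that makes the dopamine precursor, at a median of 14.5 over all arrays and at no less than 13.3 in the HAD and LAD arrays. The lowest Th signal was 8.23, in the array labelled NP 8, so not every array labelled P or NP had this profile.

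Both genes whose probe sets passed the test in a pair are shown by the 250 bases before their RefSeq transcription start (GRCr8 build), 5′ to 3′ on the gene's strand. The capitals mark the GC box GGGCGG on either strand. P2rx4 lies on the minus strand at chr12:39523090-39523339 and Entpd2 on the plus strand at chr3:28611566-28611815.
P2rx4: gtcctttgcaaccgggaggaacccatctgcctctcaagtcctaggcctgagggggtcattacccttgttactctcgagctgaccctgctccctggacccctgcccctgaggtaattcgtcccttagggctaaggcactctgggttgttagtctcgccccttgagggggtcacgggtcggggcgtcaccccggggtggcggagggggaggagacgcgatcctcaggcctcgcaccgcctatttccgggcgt
Entpd2: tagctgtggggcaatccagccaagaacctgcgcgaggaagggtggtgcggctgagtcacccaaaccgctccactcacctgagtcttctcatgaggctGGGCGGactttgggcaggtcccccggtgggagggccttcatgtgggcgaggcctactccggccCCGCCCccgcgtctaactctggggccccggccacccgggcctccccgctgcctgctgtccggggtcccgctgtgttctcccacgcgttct
Over the full RefSeq windows of 250 bases before to 50 after the start, GC content was 66.7% for P2rx4 and 68% for Entpd2, against a median of 51.7% over 33469 promoters. P2rx4 had 21 CpG sites and Entpd2 19, against a median of 7. The windows were searched on both strands for the TATA box letters TATAAA, held by 14.2% of all promoters, the CCAAT box (37.5%), the GC box GGGCGG (33.1%) and the cyclic AMP response element TGACGTCA (1.83%). Of the 7 members with an entry, the windows of P2ry1, Entpd2, Nt5e, Slc29a1 and P2rx7 held the GC box letters. The P2rx4 window held none of these motifs and the Entpd2 window held GGGCGG alone. P2rx7 lies directly next to P2rx4, with 0 protein-coding genes between them.

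A probe set was tested where the highest of its 10 line means reached 7.02, the 40th percentile of all values. Of the 12 member probe sets, 9 probe sets of 8 genes passed. The P2rx7 probe set, a second P2rx5 probe set and a second Adora2a probe set stayed below this floor. P2rx5, P2ry1 and the dimmer Adora1 probe set reached the floor through arrays labelled P and NP alone, and Adora2a through the single array labelled P 10, without which the mean of the other 8 arrays labelled P was 6.86. A probe set was called at a limma Benjamini-Hochberg adjusted p under 0.05 over all 15152 tested probe sets.

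Of the 45 differences of the 9 tested probe sets over the 5 pairs, 3 were called, and all lay within 0.38 of 0. P2rx4 was lower in HAD1 than in LAD1 and higher in HAD2 than in LAD2, and Entpd2 was higher in arrays labelled AA than in those labelled ANA. Thus 1 of 9 was called in HAD1/LAD1, where 4.09% of all tested probe sets were called, 1 of 9 in HAD2/LAD2, where 5.23% were, and 1 of 9 in AA/ANA, where 3.17% were. In P/NP none of the 9 was called by limma, where 0% of all probe sets were called and 869 had an unadjusted p under 0.05, and 0 of the 9 members did. In sP/sNP none was called by limma either, where 0% were called over all probe sets and 171 had an unadjusted p under 0.05, P2ry1 among them. No member was called in the mean of the HAD1/LAD1 and HAD2/LAD2 differences, where 5.22% of probe sets were called, or in the average of the 5 pair differences, where 1.55% were. The direction of all calls in that average depended on the scaling, with 51.9% of them higher as deposited and 41.9% higher after quantile normalization over all arrays. The 95% intervals of the members reached between 0.14 and 0.43 to either side of the estimate. A difference inside its own interval's reach could not be told from 0 with this number of arrays. A call, made on the adjusted p, could need a larger difference than that. P2rx4 in AA/ANA, at -0.27 with a 95% interval of -0.46 to -0.08, was not called (limma adjusted p = 0.106).

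**Figure D1:**
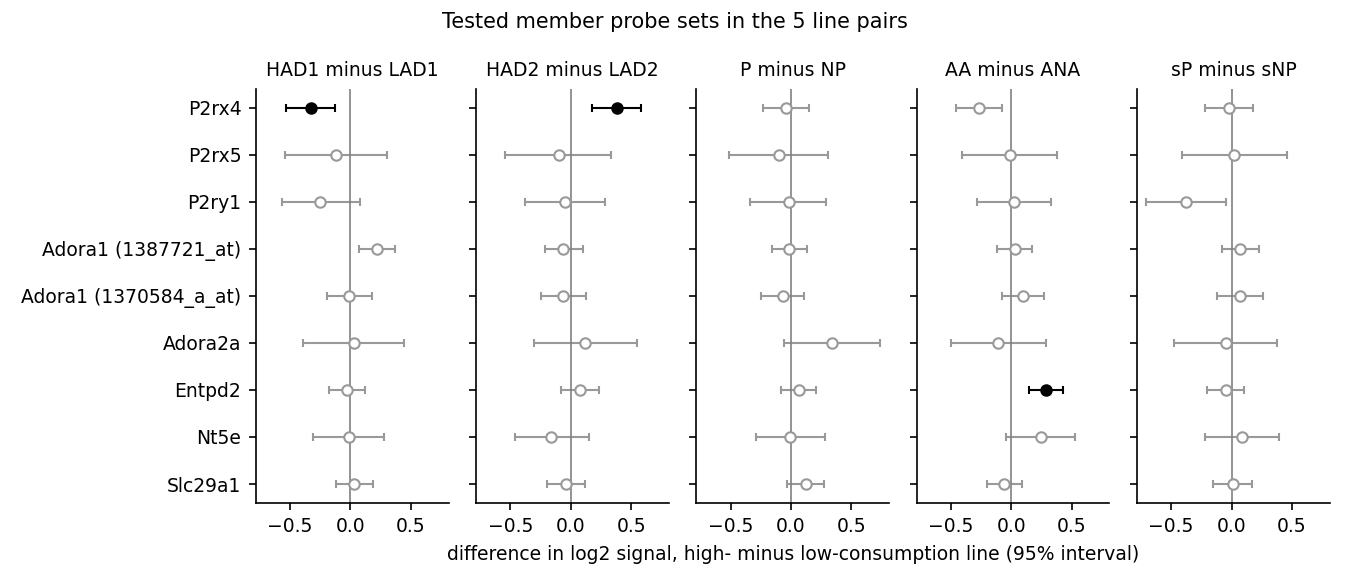
Difference in log2 signal, high- minus low-consumption line, for the 9 tested member probe sets (rows) in each of the 5 pairs (panels), with 95% intervals. Filled black points passed the adjusted threshold: P2rx4 at -0.33 in HAD1/LAD1 and at 0.38 in HAD2/LAD2, and Entpd2 at 0.29 in AA/ANA.

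P2rx4 encodes an ATP-gated cation channel subunit. Its signal had a lowest, median and highest value of 8.91, 9.06 and 9.23 in the HAD1 arrays, against 9.21, 9.43 and 9.52 in the LAD1 arrays. All 8 of the 8 HAD1 arrays lay below the LAD1 median, 6 lay below every LAD1 array, and the groups overlapped only through the LAD1 array 37 at 9.21. The difference was -0.33 ± 0.10 (SE), or 0.796-fold, with a limma adjusted p of 0.0347. In the second pair P2rx4 had a lowest, median and highest value of 8.78, 8.9 and 9.11 in the HAD2 arrays, against 8.21, 8.49 and 9.01 in the LAD2 arrays. All 8 of the 8 HAD2 arrays lay above the LAD2 median, 3 lay above every LAD2 array, and 7 of 9 LAD2 arrays lay below every HAD2 array. The difference was 0.38 ± 0.10, or 1.3-fold, with an adjusted p of 0.0103. The LAD2 arrays were spread more widely (SD 0.306, n = 9) than the HAD2 arrays (SD 0.12, n = 8).

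The HAD1/LAD1 difference of P2rx4 was thus opposite in sign to the HAD2/LAD2 difference, and the gap of -0.71 ± 0.14 between them had a limma adjusted p of 0.000237. In this test 4.13% of all probe sets were called, and P2rx4 was the only 1 of the 9 member probe sets. It was also the only member called in the test of whether the difference depends on the pair (moderated F, adjusted p = 0.000853), where 6.53% of all probe sets were called. The mean of both HAD/LAD differences was 0.02 ± 0.07. In arrays labelled AA, P2rx4 had a lowest, median and highest value of 8.13, 8.98 and 9.33, against 9.03, 9.2 and 9.34 in those labelled ANA. The difference of -0.27 ± 0.09 had an adjusted p of 0.106, and it was -0.18 (adjusted p = 0.382) without the lowest array, AA 1, which lay apart from its label, and -0.21 (adjusted p = 0.264) without all 3 such arrays. P2rx4 was at 8.47, 9.08 and 9.49 in arrays labelled P, against 8.75, 9.15 and 9.42 in those labelled NP, and at 9.15, 9.28 and 9.43 in those labelled sP, against 9.18, 9.29 and 9.42 in those labelled sNP. It differed by -0.04 ± 0.10 between arrays labelled P and NP and by -0.02 ± 0.10 between those labelled sP and sNP.

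**Figure D2:**
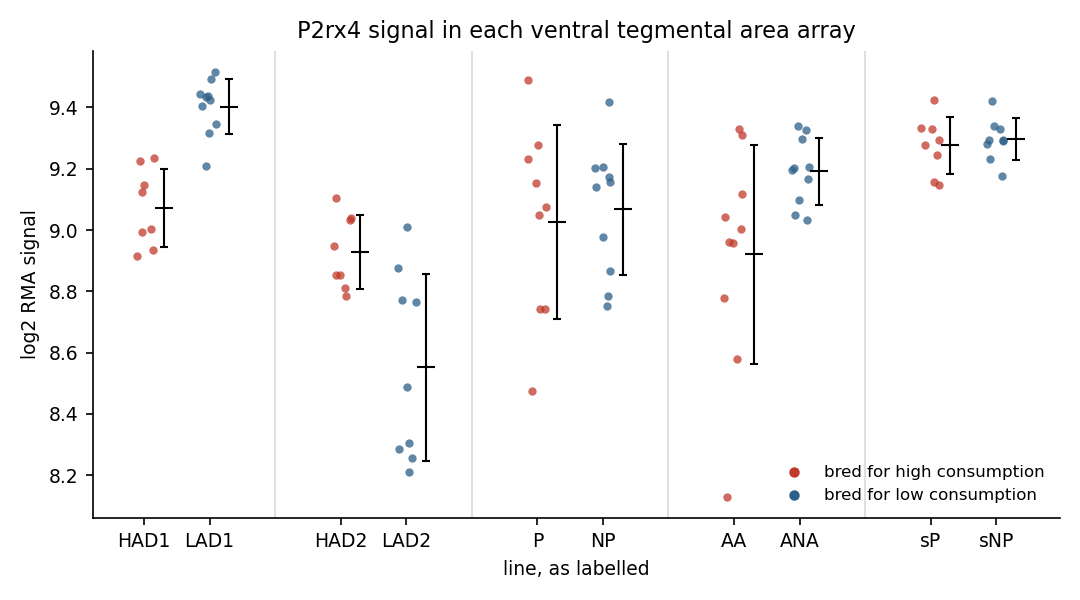
P2rx4 log2 RMA signal in each array (points) by line as labelled, high-consumption line in red left of its low-consumption line in blue, with the mean and SD in black. The HAD1 mean lies below the LAD1 mean and the HAD2 mean above the LAD2 mean, with overlapping arrays in both pairs. Levels of different pairs, whose arrays had different value distributions, were not compared.

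The HAD1/LAD1 call of P2rx4 was sensitive to single arrays. Leaving out each of the 91 arrays in turn kept the difference between -0.35 and -0.31, but the call was lost 9 times, without HAD1 23, 25, 27 or 29 or LAD1 31, 32, 33, 34 or 40, with an adjusted p of up to 0.0818. The HAD2/LAD2 call was kept in 91 of 91 such fits, with an adjusted p between 0.00219 and 0.0386. Without LAD1 37 the HAD1/LAD1 difference was -0.35 (adjusted p = 0.0203).

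The markers of microglia were looked at because P2rx4 is known from microglia. The mean of 9 tested microglial markers was 8.55 in HAD1 arrays (range 8.44 to 8.67), against 8.58 in LAD1 arrays (8.42 to 8.78), and 8.02 in HAD2 arrays (7.8 to 8.3), against 8.08 in LAD2 arrays (7.94 to 8.25). Of these markers only Cx3cr1, the fractalkine receptor, was called, at -0.33 ± 0.07 in HAD1/LAD1 (adjusted p = 0.00106), and none was called in HAD2/LAD2. Its part in the P2rx4 result was not tested. The mean of 6 tested markers of meninges and fibroblasts was 8.1 in HAD2 arrays (7.75 to 8.83), against 7.76 in LAD2 arrays (7.5 to 7.94), with 0 of 6 called. The mean of 7 striatal neuron markers was 8.95 in HAD2 arrays (8.7 to 9.16), against 8.75 in LAD2 arrays (8.61 to 8.85), with 0 of 7 called. The part of both lists in the HAD2/LAD2 result was not tested. The 3′ minus 5′ signal of Gapdh, a measure of RNA length, averaged 1.89 in HAD1 and 1.78 in LAD1 arrays, and 3.42 in HAD2 and 3.58 in LAD2 arrays. In tissue of mixed cells, fewer cells of a type and less RNA per cell cannot be told apart.

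The genes around P2rx4 were examined to see whether the differences were shared along the chromosome. Of the 5 nearest tested genes on each side, 0 of 10 were called in HAD1/LAD1, and in HAD2/LAD2 only Arpc3, a subunit of the actin-nucleating Arp2/3 complex, was, at 0.16 ± 0.05 (adjusted p = 0.0226). The next gene before P2rx4, Camkk2, a kinase of the calcium and calmodulin pathway, had differences of the opposite sign that were not called. They were 0.29 ± 0.11 in HAD1/LAD1 (adjusted p = 0.174) and -0.27 ± 0.12 in HAD2/LAD2 (adjusted p = 0.23). Orai1, a calcium channel of the plasma membrane, was at -0.10 ± 0.10 in HAD1/LAD1 and 0.26 ± 0.11 in HAD2/LAD2 (adjusted p = 0.168). The genes whose values followed P2rx4 most closely over the 35 HAD and LAD arrays, after the line means were taken off, were Kcna6, a voltage-gated potassium channel subunit (Pearson r = 0.72), Nectin2, a cell adhesion molecule (0.68), and Arpc3 (0.68). These arrays fall into 2 sets by value distribution, and the correlations are a description.

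**Figure D3:**
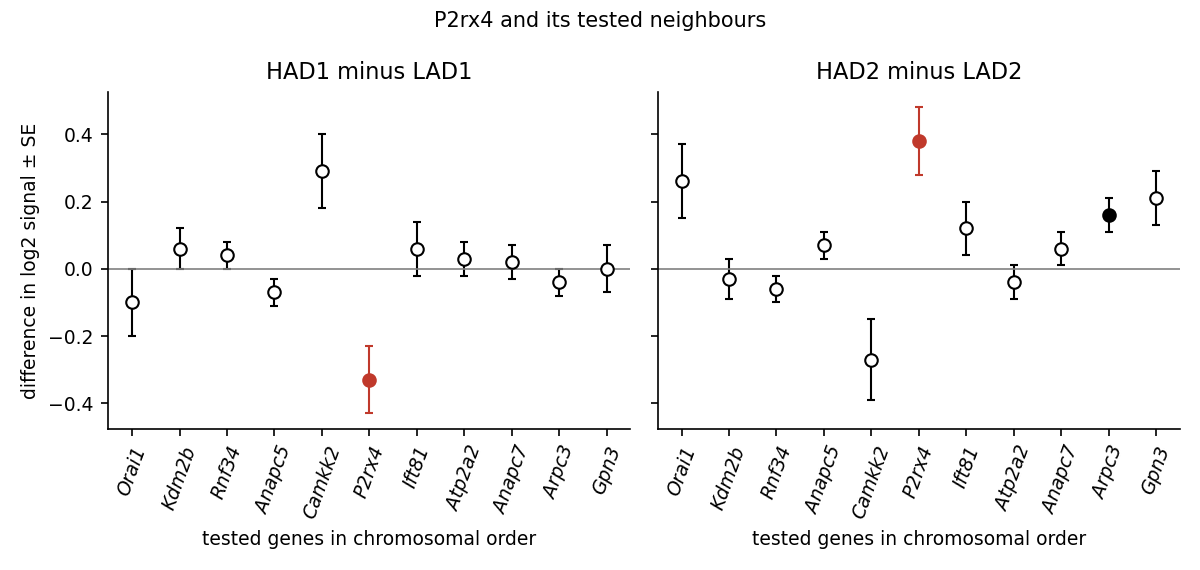
Difference in log2 signal ± SE for P2rx4 (red) and its 5 nearest tested genes on each side in chromosomal order, for HAD1 minus LAD1 (left) and HAD2 minus LAD2 (right). Filled points were called: P2rx4 in both pairs, and Arpc3 at 0.16 in HAD2/LAD2, while Camkk2 next to P2rx4 lies at 0.29 and -0.27, opposite to it.

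P2rx7 encodes the ATP-gated channel that opens at high ATP concentrations. Its probe set was below the floor in every line, with line means between 4.88 and 5.62, and was fitted with all single-gene probe sets and no floor. In arrays labelled AA the lowest, median and highest signals were 5.26, 5.64 and 5.86, against 5.24, 5.41 and 5.66 in those labelled ANA. Of the 10 AA arrays, 8 lay above the ANA median and 5 above every ANA array. The difference was 0.20 ± 0.06 with an adjusted p of 0.0359 in that fit, in which 2.37% of all probe sets were called. Without the 3 arrays that lay apart from their label it was 0.24 ± 0.06 (adjusted p = 0.00521). In the other pairs P2rx7 differed by 0.03 in HAD1/LAD1, 0 in HAD2/LAD2, -0.02 in P/NP and 0.02 in sP/sNP, each ± 0.06. In the HAD/LAD pairs P2rx7 had 95% intervals of -0.09 to 0.15 and -0.13 to 0.12 at this low signal.

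P2rx5 encodes another P2X subunit. Its tested probe set was dim in the HAD and LAD lines, with line means between 5.25 and 5.6, and differed by -0.12 ± 0.21 in HAD1/LAD1 and -0.10 ± 0.22 in HAD2/LAD2. It was widely spread in arrays labelled P, with a lowest, median and highest value of 5.82, 7.5 and 8.3, and in those labelled NP, with 5.89, 7.92 and 8.41. The SD was 0.735 in arrays labelled P and 0.916 in those labelled NP, against 0.155 to 0.321 in the HAD and LAD lines. All of these enter the errors of every pair. The P/NP difference was -0.10 ± 0.21. It was 0.10 ± 0.20 without P 10, -0.28 ± 0.19 without NP 10, and -0.44 ± 0.14 with array weights, the 1 of 10 alternatives in which it was called (adjusted p = 0.0304). The array labelled NP 8 had the highest P2rx5 signal, 8.41, and the lowest mean of dopamine neuron markers among NP arrays, 9.02. The array labelled P 10 went the other way, with the lowest P2rx5 signal, 5.82, and the lowest dopamine marker mean of all 19 arrays, 8.27. Apart from P 10, arrays with a dopamine marker mean of 11.6 or less had P2rx5 at 8 to 8.41. Those with a mean of 12 or more had P2rx5 at 5.89 to 7.84. This division was made after seeing the values. The dopamine neuron marker mean reached up to 13.3 in arrays labelled P and 13.2 in those labelled NP, and its part in the spread of P2rx5 was not tested. The second probe set had differences between -0.09 and 0.09 over the 5 pairs.

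P2ry1 encodes the receptor through which ADP raises intracellular calcium. Its signal in the HAD1 arrays had a lowest, median and highest value of 5.04, 5.26 and 5.34, against 5.08, 5.47 and 5.82 in the LAD1 arrays. All 8 of the 8 HAD1 arrays lay below the LAD1 median and 8 of 10 LAD1 arrays above every HAD1 array, at a level under the floor in both lines. The difference of -0.25 ± 0.16 was not called with the residual spread of all 91 arrays (adjusted p = 0.627), and it was called in the fit of the 35 HAD and LAD arrays alone (-0.25 ± 0.07, adjusted p = 0.0335). In arrays labelled sP the signal was 5.94, 6.24 and 6.46, against 6.19, 6.5 and 7.16 in those labelled sNP. All 8 of the 8 sP arrays lay below the sNP median, and the difference of -0.38 ± 0.17 had an unadjusted p of 0.0264 and an adjusted p of 1. P2ry1 differed by -0.05 ± 0.17 in HAD2/LAD2, -0.02 ± 0.16 in P/NP and 0.02 ± 0.15 in AA/ANA. The AA/ANA value was -0.14 ± 0.13 without the 3 arrays that lay apart, and the P/NP value was -0.34 ± 0.12 with array weights (adjusted p = 0.0634).

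Adora1 encodes the adenosine receptor that dampens transmitter release. Its brighter probe set had a lowest, median and highest signal of 9.62, 9.73 and 9.99 in HAD1 arrays, against 9.23, 9.6 and 9.75 in LAD1 arrays. All 8 of the 8 HAD1 arrays lay above the LAD1 median, 4 lay above every LAD1 array, and the groups overlapped. The difference of 0.22 ± 0.08 had an unadjusted p of 0.00466 and an adjusted p of 0.0907, and the difference ranged from 0.11 to 0.26 over 11 alternatives. It was called in 2 of them, without the 3 arrays that lay apart from their label (0.22 ± 0.07, adjusted p = 0.0309) and with array weights (0.26 ± 0.06, adjusted p = 0.00224). As the mean of both probe sets it was 0.11 ± 0.07 (adjusted p = 0.645). The dimmer probe set, at means of 5.38 in HAD1 and 5.38 in LAD1 arrays, differed by -0.01 ± 0.09. In the other pairs the brighter probe set differed by -0.06 in HAD2/LAD2, -0.02 in P/NP, 0.03 in AA/ANA and 0.07 in sP/sNP. Of the 10 tested neighbours of Adora1, Chi3l1, the nearest tested gene before it, was called in both HAD/LAD pairs with opposite signs. It encodes a secreted chitinase-like protein made by astrocytes and macrophages. Its HAD1/LAD1 difference was 1.01 ± 0.18 (adjusted p = 3.45e-05), and its HAD2/LAD2 difference was -0.87 ± 0.18 (adjusted p = 0.000493). Adipor1 was also called in HAD2/LAD2, at 0.17 ± 0.04 (adjusted p = 0.00402).

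Adora2a encodes the adenosine receptor of striatal neurons. Its tested probe set was near or below the floor in every array but that labelled P 10, with a lowest, median and highest signal of 6.56, 6.75 and 6.94 in HAD1 arrays, against 6.46, 6.71 and 7.1 in LAD1 arrays. In HAD2 arrays it was 5.9, 6.17 and 6.35, against 5.76, 5.99 and 6.48 in LAD2 arrays. The differences were 0.03 ± 0.21 and 0.12 ± 0.21. The array labelled P 10 had an Adora2a signal of 10.8, against 6.69 to 7.03 in the other 8 arrays labelled P and 6.74 to 7.18 in those labelled NP. The same array had a mean of 7 striatal neuron markers of 11.2, against 8.2 to 8.74 in the others labelled P and 7.96 to 8.86 in those labelled NP, and a mean of 7 dopamine neuron markers of 8.27, against 10.5 to 13.3 and 9.02 to 13.2. The P/NP difference of Adora2a was 0.34 ± 0.20 with this array and -0.10 ± 0.08 (adjusted p = 1) without it.

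Entpd2 encodes the ecto-ATPase that leaves ADP as its main product. Its signal had a lowest, median and highest value of 9.16, 9.33 and 9.54 in arrays labelled AA, against 8.9, 9.01 and 9.26 in those labelled ANA. All 10 of the 10 AA arrays lay above the ANA median, 7 lay above every ANA array, and 9 of 10 ANA arrays lay below every AA array. The difference was 0.29 ± 0.07 (95% interval 0.15 to 0.43), with a limma adjusted p of 0.00722. The call was kept in all 91 fits with 1 array left out (adjusted p between 0.00371 and 0.0234), and the difference was 0.32 ± 0.08 (adjusted p = 0.00469) without the 3 arrays that lay apart from their label. Entpd2 differed by -0.03 ± 0.08 in HAD1/LAD1, 0.08 ± 0.08 in HAD2/LAD2, 0.07 ± 0.07 in P/NP and -0.05 ± 0.08 in sP/sNP. The test of whether its difference depends on the pair had an adjusted p of 0.119, so AA/ANA was not shown to differ from the other pairs.

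Because Entpd2 is known from astrocytes, their markers are given beside it. The mean of 8 astrocyte markers was 11.9 in AA arrays (range 11.6 to 12.1), against 11.8 in ANA arrays (11.5 to 12.2), and 0 of 8 were called by limma. Of the 10 tested neighbours of Entpd2, 0 were called in AA/ANA, where the largest difference was 0.18 ± 0.07 for Paxx, a DNA repair factor (adjusted p = 0.176).

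**Figure D4:**
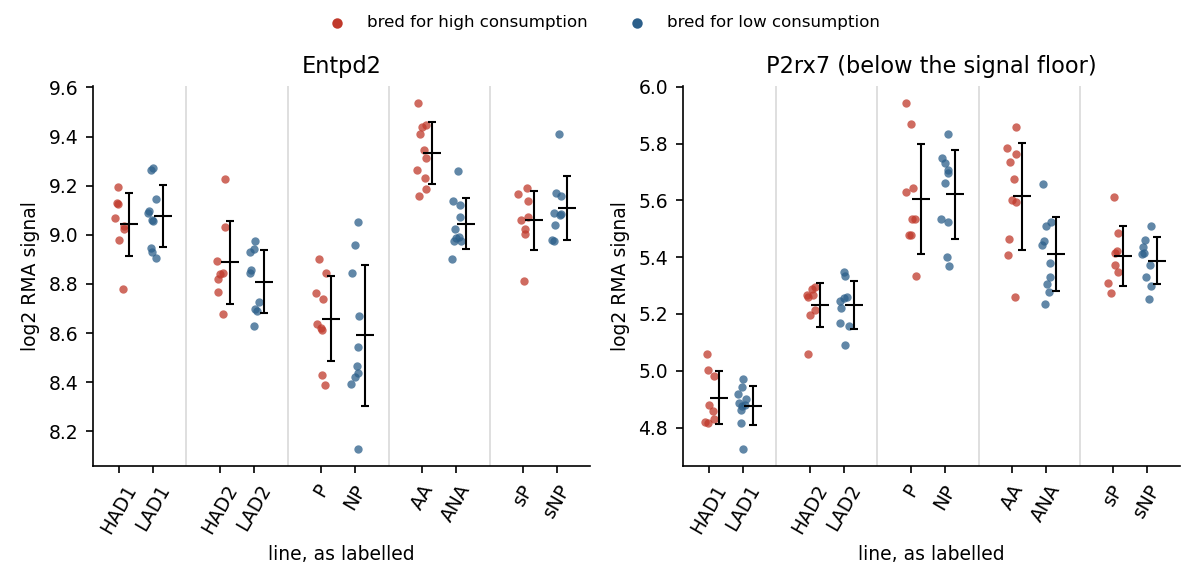
Log2 RMA signal of Entpd2 (left) and P2rx7 (right) in each array by line as labelled, high-consumption line in red left of its low-consumption line in blue, with mean and SD in black. The mean of arrays labelled AA lies above that of arrays labelled ANA for both genes, at about 9.33 against 9.04 for Entpd2 and 5.61 against 5.41 for P2rx7. The groups overlap for both genes, more so for P2rx7, which stays below the floor of 7.02.

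Nt5e encodes the enzyme that makes adenosine from AMP outside the cell. Its signal had a lowest, median and highest value of 8.4, 8.43 and 8.71 in arrays labelled AA, against 7.6, 8.31 and 8.71 in those labelled ANA. All 10 of the 10 AA arrays lay above the ANA median, but the difference of 0.25 ± 0.14 was not called (adjusted p = 0.496). In HAD2 arrays Nt5e was at 6.88, 7.64 and 7.79, against 7.47, 7.64 and 7.91 in LAD2 arrays, a difference of -0.16 ± 0.15. The HAD1/LAD1, P/NP and sP/sNP differences were -0.01, -0.01 and 0.09, with a 95% interval of -0.31 to 0.28 in HAD1/LAD1. In arrays labelled sP and sNP the Nt5e values fell into separate ranges with a gap of 0.84 between them. In the upper range lay sP 6 to 9, at 8.67 to 8.73, and sNP 1 to 4, at 8.65 to 8.89. In the lower range lay sP 2 to 5, at 7.45 to 7.81, and sNP 5 to 9, at 7.43 to 7.77. The split thus ran across the line labels in runs of animal numbers, and with these labels in doubt the sP/sNP difference of 0.09 and the absence of calls in that pair cannot be read as likeness of the lines. With array weights the Nt5e difference was 0.32 ± 0.14 (adjusted p = 0.711).

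Slc29a1 encodes the transporter that moves adenosine across the plasma membrane. Its signal was 8.22, 8.39 and 8.54 in HAD1 arrays, against 8.19, 8.36 and 8.6 in LAD1 arrays, as lowest, median and highest. It was 8.22, 8.54 and 8.6 in HAD2 arrays, against 8.38, 8.46 and 8.99 in LAD2 arrays. The differences over the 5 pairs were 0.03, -0.04, 0.12, -0.06 and 0.01, none was called, and the 95% intervals lay within -0.12 to 0.19 in HAD1/LAD1 and -0.20 to 0.12 in HAD2/LAD2.

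Other genes of purine signalling and metabolism were taken from a list of 57 symbols, of which 48 had a single-gene probe set and 32 were tested, each by its brightest tested probe set. In HAD1/LAD1, 1 of 32 was called (3.12%, against 3.86% of all genes). In HAD2/LAD2 it was 4 of 32 (12.5%, against 5.37% of all genes), and in AA/ANA 2 of 32 (6.25%, against 3.02%). None was called by limma in P/NP or sP/sNP, where 2 and 1 had an unadjusted p under 0.05. The median differences of the 32 genes were 0 in HAD1/LAD1, 0.03 in HAD2/LAD2 and 0 in AA/ANA, against 0.01, 0.02 and 0 over all genes.

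The calls in HAD2/LAD2 included 3 of the 4 other tested P2Y receptors. P2ry12, the ADP receptor of brain microglia, was higher in HAD2 arrays in both its probe sets. The brighter had a lowest, median and highest value of 11.1, 11.4 and 11.9 in HAD2 arrays, against 10.5, 10.9 and 11.4 in LAD2 arrays, with a difference of 0.54 ± 0.16 (adjusted p = 0.0284). The other was at 8.1, 8.27 and 8.66 in HAD2 arrays, against 7.52, 7.81 and 7.97 in LAD2 arrays, so the groups did not overlap, and it differed by 0.53 ± 0.15 (adjusted p = 0.0141). The microglial marker mean given above was 8.02 in HAD2 and 8.08 in LAD2 arrays, and that list does not hold P2ry12. The brighter probe set lost its call without HAD2 8, 9 or 10 or LAD2 11, 12 or 13, with an adjusted p of up to 0.094. P2ry14, a receptor for UDP-glucose, was at 6.67, 7.04 and 7.41 in HAD2 arrays, against 6.36, 6.54 and 6.86 in LAD2 arrays, a difference of 0.39 ± 0.08 (adjusted p = 0.000201). Its line means, 7.01 in HAD2 and 6.62 in LAD2, both lay under the floor of 7.02, which it reached through other lines. P2ry12 and P2ry14 lie on the same side of P2ry1 among its 5 nearest tested genes, and they were the called ones of its 10 neighbours in HAD2/LAD2. P2ry2, a receptor for ATP and UTP, was below the floor in both lines, at 5.66, 5.84 and 5.99 in HAD2 arrays, against 5.98, 6.12 and 6.4 in LAD2 arrays, and differed by -0.34 ± 0.10 (adjusted p = 0.0141). In HAD1/LAD1 the differences were 0.23 ± 0.16 for P2ry12, 0.19 ± 0.08 for P2ry14 and -0.17 ± 0.09 for P2ry2, none called. The differences of P2ry12, P2ry14 and P2ry2 in HAD1/LAD1 minus those in HAD2/LAD2 were not called either (adjusted p = 0.676, 0.462 and 0.713).

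Among enzymes, Entpd6, a nucleoside diphosphatase of the secretory pathway, had a lowest, median and highest value of 9.94, 10.4 and 10.8 in HAD2 arrays, against 9.69, 9.91 and 9.97 in LAD2 arrays. It differed by 0.52 ± 0.09 (adjusted p = 8.21e-06). In HAD1 arrays Entpd6 was at 10.2, 10.5 and 10.9, against 10.5, 10.7 and 10.9 in LAD1 arrays, a difference of -0.22 ± 0.09 that was not called (adjusted p = 0.195). The gap between both HAD/LAD differences was -0.74 ± 0.12 (adjusted p = 8e-06), the same sign as for P2rx4. Entpd5, a related enzyme of the endoplasmic reticulum, gave different results by probe set. Its dimmest tested probe set had a lowest, median and highest value of 6.35, 6.62 and 6.79 in HAD1 arrays, against 6.42, 7.05 and 7.44 in LAD1 arrays. That was a difference of -0.53 ± 0.11 (adjusted p = 0.000557). The brightest differed by -0.22 ± 0.10 (adjusted p = 0.331) and the remaining tested probe set by -0.22 ± 0.08 (adjusted p = 0.0923).

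Enpp2, known as autotaxin, which makes lysophosphatidic acid, was at 13.3, 13.6 and 14 in HAD1 arrays, against 12.9, 13.2 and 13.6 in LAD1 arrays, a difference of 0.34 ± 0.10 (adjusted p = 0.022). It was not called with that pair fitted alone (adjusted p = 0.0734), and it was kept in 86 of 91 fits with 1 array left out (lost without HAD1 21, 22 or 23 or LAD1 32 or 38, adjusted p up to 0.121). Enpp1, which makes pyrophosphate from extracellular ATP, was at 5.95, 6.72 and 8.82 in arrays labelled AA, against 7.82, 8.55 and 9.12 in those labelled ANA. It differed by -1.56 ± 0.16 (adjusted p = 8.19e-12), and by -1.77 ± 0.14 without the 3 arrays that lay apart from their label. These errors use the residual spread of all lines. The Enpp1 SD was 0.832 in arrays labelled AA and 0.512 in those labelled ANA, against 0.0733 to 0.289 in the other lines. The call was kept in all 12 alternatives other than leaving out single arrays, with a limma adjusted p of up to 0.00596. Nt5c3b, a cytosolic nucleotidase, differed by 0.19 ± 0.06 in AA/ANA (adjusted p = 0.048), a call that was kept in 57 of 91 fits with 1 array left out and lost without the 3 arrays that lay apart (0.20 ± 0.06, adjusted p = 0.06). None of the 2 other tested P2X subunits, the 3 nucleoside transporters, the 3 genes of ATP release or the adenosine receptor Adora2b was called by limma in any pair.

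**Figure D5:**
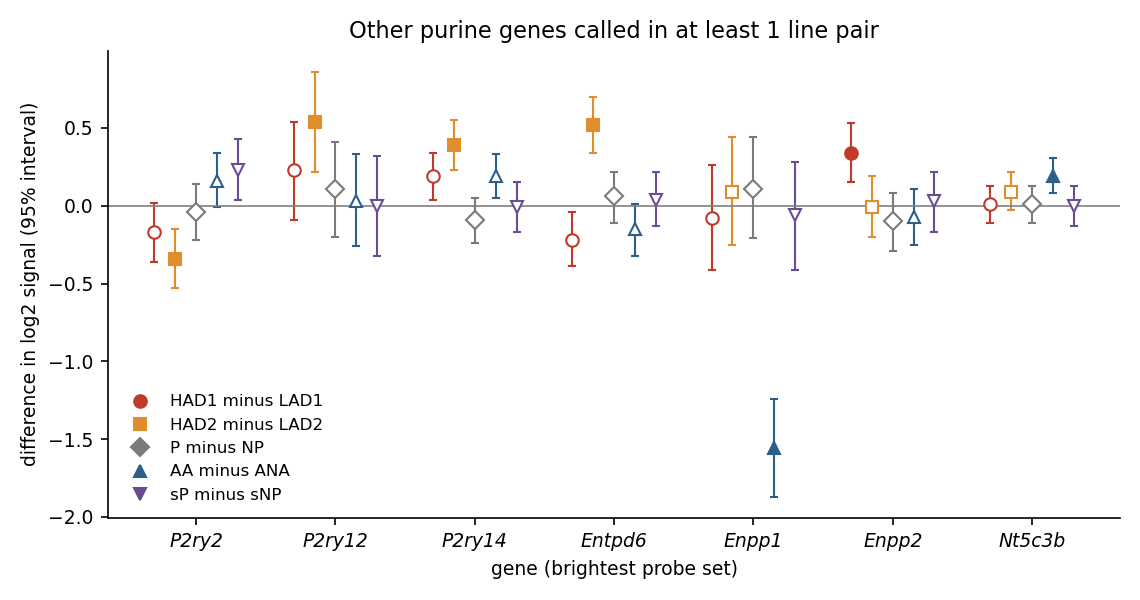
Difference in log2 signal, high- minus low-consumption line, with 95% intervals, for the 7 other purine genes called in at least 1 pair, by the brightest probe set. Filled symbols were called, and the largest difference is that of Enpp1 at -1.56 in AA/ANA.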

How the data were processed

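Biotin cRNA was made in 2 cycles from 25 ng of Trizol- and RNeasy-purified RNA, per the labels' protocols. The authors deposited a log2 signal for each of 31099 probe sets, made with RMA, per the submitters' processing notes. Its version and the arrays it was run on together are not given in the sources used. Values ranged from 3.71 to 16.2, the number of arrays limits the precision, and 0 columns lacked a sample. Nothing in the labels beyond animal numbers says how tissue was batched.

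Samples were grouped by the line in their labels. The platform annotation gave 1 symbol to 20826 probe sets, several to 436 and none to 9780, and 57 controls were dropped. By gene ID, 20758 of those with 1 symbol matched a RefSeq gene table (GRCr8), which was used only for names and gene order, and 0 symbols changed. Promoter sequences are RefSeq's (GRCr8) and were found for 7 of the 9 genes.

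Line means of the 10 lines were fitted in limma (lmFit, then eBayes) to all 91 arrays over 15152 probe sets of 11087 genes whose highest line mean was at least 7.02, with 81 residual degrees of freedom. Differences are high- minus low-consumption line, p-values are 2-sided and adjusted by Benjamini and Hochberg's method over all tested probe sets of a contrast. Dependence on the pair was tested by a moderated F with 4 numerator degrees of freedom. Sets of arrays were made by clustering the arrays' quantiles. Errors are standard errors unless named SD. The fit was tested on simulated data.

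The members, gene lists and tests were chosen with earlier results of these data known. Named were all members, other purine genes with a probe set called in a pair, neighbours where a result turned on them, and the 3 genes most like P2rx4. Cell type marker lists were microglia, astrocytes, endothelium and pericytes, oligodendrocytes, dopamine neurons, striatal neurons, and meninges and fibroblasts. Alternatives were no floor or the 60th percentile (8.58), 1 or the mean probe set per gene, quantile normalization over all arrays, centring, array weights, a robust prior with an intensity trend, fewer arrays and a replicate block. The AA and ANA arrays of 1 set alone, and no floor without the 3 arrays, were added after seeing the data. Versions were R 4.3.3, limma 3.58.1, and for figures Python 3.11.15 with matplotlib 3.10.9.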

Additional observations from a re-analysis of the deposited data

Results flagged for a closer look

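In 17 of 120 groups of arrays (a member probe set in a line), 1 array's gap to the nearest other was large for the group's range, where chance gives about 1 in 20. The array labelled P 10 stood apart at 10.8 for the tested Adora2a probe set, at 7.26 for its dimmer probe set and at 9.09 for the brighter Adora1 probe set. Arrays that lay apart from their label by value distribution did so for P2ry1 (ANA 20, 6.67), brighter Adora1 (AA 19, 9.35, and ANA 20, 9.21) and Slc29a1 (AA 19, 7.16). The others were the brighter Adora1 probe set in HAD2 8 (9.15) and sP 3 (9.26), the dimmer Adora2a probe set in HAD2 9 (5.97), P2rx7 in HAD2 6 (5.06) and Entpd2 in sNP 9 (9.41). Slc29a1 also had single arrays apart in LAD1 31 (8.6), LAD2 20 (8.99), NP 8 (6.78), ANA 8 (7.96) and sNP 5 (7.8).

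The difference between lines itself differed between the HAD/LAD pairs for P2rx4 (limma adjusted p = 0.000237), Entpd6 (8e-06) and Entpd5 (dimmest probe set, 0.000717). Over the 5 pairs it depended on the pair for P2rx4 (moderated F, adjusted p = 0.000853), Entpd6 (2.45e-05), Enpp1 (6.63e-09), P2ry2 (0.00442), P2ry14 (0.00572) and Entpd5 (dimmest probe set, 0.00574). The brighter Entpd5 probe sets were called in neither test. Their adjusted p was 0.126 and 0.166 between the HAD/LAD pairs (limma), and 0.274 and 0.242 over the 5 pairs (moderated F).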

How the results depend on the processing

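Both P2rx4 calls were kept in all 11 alternatives other than leaving out single arrays, with an adjusted p between 0.000949 and 0.0446 in HAD1/LAD1 and between 0.00189 and 0.0453 in HAD2/LAD2, and Entpd2 in AA/ANA in all 12 (adjusted p between 2.07e-05 and 0.00906). No called member difference changed sign, in 5 under these alternatives and 4 with 1 array left out. Of the differences that were not called, 9 of 70 changed sign under an alternative and 18 of 68 with 1 array left out. The larger such changes were Adora2a in P/NP (-0.10 without P 10, -0.11 with array weights), P2rx5 in P/NP (0.10 without P 10) and P2ry1 in AA/ANA (-0.14 without the 3 arrays). The number of called member probe sets was 2 in AA/ANA with no floor (P2rx7 joins, as it was not tested above the floor), and also 2 with no floor and without the 3 arrays apart. It was 2 in HAD1/LAD1 without those 3 arrays and 2 with the HAD and LAD arrays alone. In these settings the calls over all probe sets stayed within 1.5 times those of the main fit (620 in HAD1/LAD1 and 481 in AA/ANA). With array weights, where calls over all probe sets rose more, the member count was 2 in HAD1/LAD1, 1 in P/NP and 2 in AA/ANA. It was 2 between the HAD/LAD pairs, 2 in the average and 3 in the test of dependence on the pair, and the cause was not tested. The probe sets that gained a call were Adora1 in HAD1/LAD1 and between the HAD/LAD pairs, P2rx5 in P/NP, P2rx4 in AA/ANA, P2ry1 and Entpd2 in the average, and Entpd2 and Adora1 in the last test. Leaving out single arrays gave 0 to 1 called member probe sets in HAD1/LAD1, 1 to 2 in AA/ANA (2 without AA 7 or AA 19, where P2rx4 was called), 1 in HAD2/LAD2 and 0 in P/NP and sP/sNP. Of the single member results under an alternative, 8115 kept direction and side of the threshold or stayed within the error, 12 gained a call, 9 lost it and 12 moved.

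With array weights the calls over all probe sets were 1040 in place of 620 in HAD1/LAD1, 1515 in place of 0 in P/NP, 1253 in place of 481 in AA/ANA, 5 in place of 0 in sP/sNP and 1059 in place of 626 between the HAD/LAD pairs. They were 1227 in place of 791 in the HAD/LAD mean, 1057 in place of 235 in the average and 3471 in place of 989 for dependence on the pair. AA/ANA fitted alone had 197 calls, and the average with 1 probe set per gene 155.

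Animal numbers are shared between P and NP (9) and between sP and sNP (8). Same-numbered arrays did not deviate together throughout. In P/NP r lay between -0.71 and 0.7 and was over 0.1 for 6 of 9 numbers. In sP/sNP it lay between -0.37 and 0.29 and was over 0.1 for 1 of 8. Of these arrays, 1 in P/NP and 0 in sP/sNP correlated best with their own number. Such correlations do not settle whether the numbers pair the samples, and the main fit did not use them as pairs. With the number as a replicate block, 0 member probe sets and 0 of all 15152 were called in P/NP and in sP/sNP. HAD/LAD and AA/ANA lines share no numbers. Probe sets dim in a pair, P2rx7, P2rx5, P2ry1 and Adora2a, are limited by their signal over background.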

Other observations

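Outside the purine genes, the vessel markers Abcb1a and Tek also differed in opposite directions in the HAD/LAD pairs. Abcb1a, the drug efflux pump of the blood-brain barrier, was at -0.53 ± 0.11 in HAD1/LAD1 (limma adjusted p = 0.000794), 0.60 ± 0.12 in HAD2/LAD2 (adjusted p = 0.000107) and 0.41 ± 0.11 in AA/ANA (adjusted p = 0.0122). Tek, the endothelial angiopoietin receptor, was at 0.39 ± 0.07 in HAD1/LAD1 (adjusted p = 2.45e-05) and at -0.37 ± 0.07 in HAD2/LAD2 (adjusted p = 7.53e-05). Of 10 tested endothelial and pericyte markers, 2 were called in HAD1/LAD1, 1 higher and 1 lower, and 4 in HAD2/LAD2, 2 higher and 2 lower, so the list did not move 1 way in either pair. Of 8 oligodendrocyte markers, Mobp was higher in HAD1 (0.30 ± 0.08, adjusted p = 0.00858) and Opalin lower in HAD2 (-0.33 ± 0.10, adjusted p = 0.0385). No tested dopamine neuron, striatal or meningeal marker was called by limma in any pair.

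Near other members, Trpv1, a heat- and capsaicin-gated channel in the neighbourhood of P2rx5, was higher in HAD1 (0.63, adjusted p = 0.0347), and Mrap2, a melanocortin receptor partner near Nt5e, was lower in HAD1 (-0.34, adjusted p = 0.00808). Both member genes themselves lay within 0.12 of 0 in that pair.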
